A study of Medicago sativa with 9 samples.

Results

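Leaf transcripts of the forage legume alfalfa (Medicago sativa) were compared after 12 h of selenite treatment with those at 0 h. Selenite is the Se(IV) form of selenium and was given at 100 mg per kg. The comparison took its libraries by their labelled time: the 3 of 12 h and the 3 of 0 h, 6 of the 9 in the series, while the 3 of 48 h only helped to estimate the spread. The labels name the tissue (leaves), the dose and the hours, and they give no cultivar, plant age or hour of the day. All 9 libraries are labelled as selenium-treated, for 0, 12 or 48 h, and no untreated leaves at 12 h are among the samples. Hours of selenite and time of sampling therefore cannot be told apart. Whether libraries of one time came from separate plants is not stated, so the p-values reflect only how these libraries scatter, and that scatter may be technical. In bulk leaf RNA, fewer cells of a type and less RNA per cell cannot be told apart either.

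Selenite enters plants largely through phosphate transporters and is built into the selenium analogues of cysteine and methionine. Transcripts of leaves also differ with light, the time of day and the supply of sugar. Leaves store carbon as starch and export sugars and amino acids through membrane carriers, while autophagy and amino acid breakdown release carbon from proteins and lipids. Changes in the genes of sulfate uptake, the photosystems and the clock were set aside here, and the account covers the other genes.

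Alfalfa carries 4 copies of each of 8 chromosomes, so that most genes have several near-identical copies that can exchange reads. The values below are therefore sums over copies with one description on one numbered chromosome, called summed copies and named by the description and the chromosome. Levels are summed FPKM (fragments counted relative to transcript length and library size). A log2 change is 12 h over 0 h with its standard error (SE) from the counts, and a gene is called higher or lower where edgeR's adjusted p was under 0.05. Of 20074 summed copies tested, 968 were called higher, 4.82% of those tested, and 1663 lower, 8.28%, which makes 13.1% called in all. Among the 50878 single genes tested, 806 (1.58%) were called higher and 2185 (4.29%) lower, 5.88% in all. The median log2 change over all tested summed copies was -0.0049.

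The libraries held 39936347 to 56137145 counts. Libraries also differed in how they drew on the chromosome copies and in their scaling. In 2902 sets of copies, the 3 libraries of 12 h were almost alike: 8.67% to 8.93% of reads would have to move to another copy to make a pair equal, against 20.7% to 23.3% between libraries of 0 h. Replicates 1 and 3 of 48 h were alike in the same way (9.54%), and each differed from replicate 2 of 48 h by 22.9% to 23.7%. Scaling factors were 1.22 to 1.30 at 12 h, against 0.845 to 0.986 at 0 h, and with library totals as the only scaling the median change of all summed copies would be 0.44 in place of -0.0049. Under that scaling 2850 summed copies would be called higher and 1164 lower, and the medians of 37 of 85 gene lists would change sign. The 155 summed copies named below all kept their call and direction. They were chosen among the calls counted above, so kept calls and directions, here and in the other fits, partly follow from that choice. All log2 changes and calls below are relative to the scaled median, and counts under library totals stand in brackets where they turn or even the balance of a list, a marker list or a term. The FPKM levels carry no such scaling, so a rise tends to look larger in FPKM than in its log2 change, and a fall smaller. Shares of calls in a list or term are to be read against the 4.82% higher and 8.28% lower over all summed copies. Unless another tool is named, each count of calls is edgeR's. With libraries of like copy usage summed, the 3 of 12 h into one column and replicates 1 and 3 of 48 h into another, edgeR called 0 summed copies, with 2296 at an unadjusted p under 0.05, and DESeq2 called 1567, 315 higher and 1252 lower. That fit has 1 column for 12 h, which is assumed to vary like those of the other times, and the part of the 12 h and the 48 h libraries in the lost calls was not told apart. Without 12 h replicate 1 or 2, edgeR called 1111 and 1122 summed copies. Of the 155 summed copies named below, 145 were called in that DESeq2 fit and 0 in edgeR's on the same columns, and 133 stayed called in all 9 edgeR fits that left out one library.

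The leaf label was checked against marker genes. Mesophyll markers, such as the small chain of Rubisco and plastocyanin, summed to 109776 to 126803 FPKM at 12 h, against 92870.3 to 123647 FPKM at 0 h, and 0 of 26 were called higher and 2 lower (0 and 5 by DESeq2 and at an unadjusted p under 0.05). Markers of xylem were lower at 12 h: 7 of 11 were called lower and none higher (10 and 0 by DESeq2), their median log2 change was -3.17, and they summed to 11.1 to 18.6 FPKM at 12 h, against 41.2 to 130.2 FPKM at 0 h. Guard cell, flower and dividing cell markers had no member called by edgeR (0, 2 and 1 at an unadjusted p under 0.05, and 0, 2 and 0 called by DESeq2; 1 flower marker was higher with library totals), and root and nodule markers had 3 of 17 lower. Phloem markers had 0 of 13 higher and 1 lower by edgeR (0 and 4 by DESeq2, 0 and 6 at an unadjusted p under 0.05; 1 and 2 with library totals). Seed markers had 1 of 5 higher and 1 lower, and summed to 80.8 to 119.8 FPKM at 12 h, against 32.1 to 60.2 FPKM at 0 h. The part of such shifts in the other results was not tested.

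The largest rises covered genes of unlike function. Snakin-2 on chromosome 8, a small secreted cysteine-rich peptide of a family with antimicrobial members, had 66.3, 65.2 and 73.6 FPKM at 12 h, against 0, 0 and 0 FPKM at 0 h. It had no count in any 0 h library and was at least 395-fold higher, against a floor of 3 counts per library (adjusted p = 0.00524). Cell number regulator 9, of a family of membrane proteins tied to organ size in maize, had 929.7, 983 and 837 FPKM at 12 h, against 8.55, 4.23 and 7.15 FPKM at 0 h. All 12 h libraries stood far above all 0 h libraries, with a log2 change of 6.60 ± 0.40 (SE) and an edgeR adjusted p of 0.000167. An adenine nucleotide alpha hydrolase protein, of the universal stress protein type of fold, had 128, 102 and 81.1 FPKM at 12 h, against 0.107, 0.721 and 0 FPKM at 0 h. The ethylene-responsive factor ERF106, a transcription factor, had 13.7, 16.5 and 5.27 FPKM at 12 h, against 0.0438, 0.00577 and 0.143 FPKM at 0 h, with a log2 change of 6.53 ± 0.90.

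Other large rises were seen in a B-box type zinc finger (At1g68190), the kinase PBL23, ethylene response factor 8, CONSTANS-LIKE 9 and a lipid-transfer protein. The zinc finger At1g68190 changed by 6.21 ± 0.70, PBL23, of the receptor-like cytoplasmic kinases, by 7.94 ± 1.32, ethylene response factor 8 by 7.36 ± 0.61, CONSTANS-LIKE 9 by 7.78 ± 1.18 and non-specific lipid-transfer protein 5 by 6.29 ± 1.23. The chaperone dnaJ 11 on chromosome 8, a small plastid J-domain protein, had 51.2, 51.6 and 5.0 FPKM at 12 h, against 0.35, 0 and 0.139 FPKM at 0 h. The third library of 12 h was thus an order of magnitude below the other 2 and still above each 0 h library. Its call was lost in 3 of 9 fits with one library left out, with an adjusted p of at most 0.0576 (without 0 h replicate 3). The light-inducible bZIP protein CPRF2 changed by 9.13 ± 1.77. A CHY and RING-type zinc finger protein changed by 7.49 ± 2.03, with 6 of 9 such calls lost (adjusted p up to 0.106 without 0 h replicate 3), and PBL23 lost 2 (up to 0.0554 without 12 h replicate 1).

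Some of the largest values belong to single copies of a larger family, and reads can be assigned to one copy or another. An elongation factor 1-alpha-like gene on chromosome 8, whose protein brings aminoacyl-tRNA to the ribosome, had 35.6, 39.8 and 35.4 FPKM at 12 h, against 0, 0 and 0 FPKM at 0 h. Over all 14 summed copies described as elongation factor 1-alpha the total was 2014, 2193 and 2240.2 FPKM at 12 h, against 1740.4, 1634 and 1414 FPKM at 0 h. The family as a whole therefore differed far less than that copy. Likewise eIF3 subunit E on chromosome 4, part of the translation initiation complex, had no count at 12 h, against 8.88, 17.4 and 21.9 FPKM at 0 h, while the family total was 57.8, 58.6 and 63.3 FPKM at 12 h, against 58.5, 66.1 and 70.8 FPKM at 0 h. A gallate 1-beta-glucosyltransferase on chromosome 7 also had no count at 12 h and 90.6, 66.3 and 3.37 FPKM at 0 h. The 5 summed copies of that description together had 83.7, 71.8 and 151 FPKM at 12 h, against 372, 214 and 127 FPKM at 0 h, and these totals overlap. A glutamate-ammonia ligase-like gene on chromosome 3 had no count at 0 h and 12.4, 13.7 and 7.66 FPKM at 12 h, at least 169-fold higher, but its call was lost in 6 of 9 fits with one library left out (adjusted p up to 0.0844 without 12 h replicate 2).

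**Figure D1:**
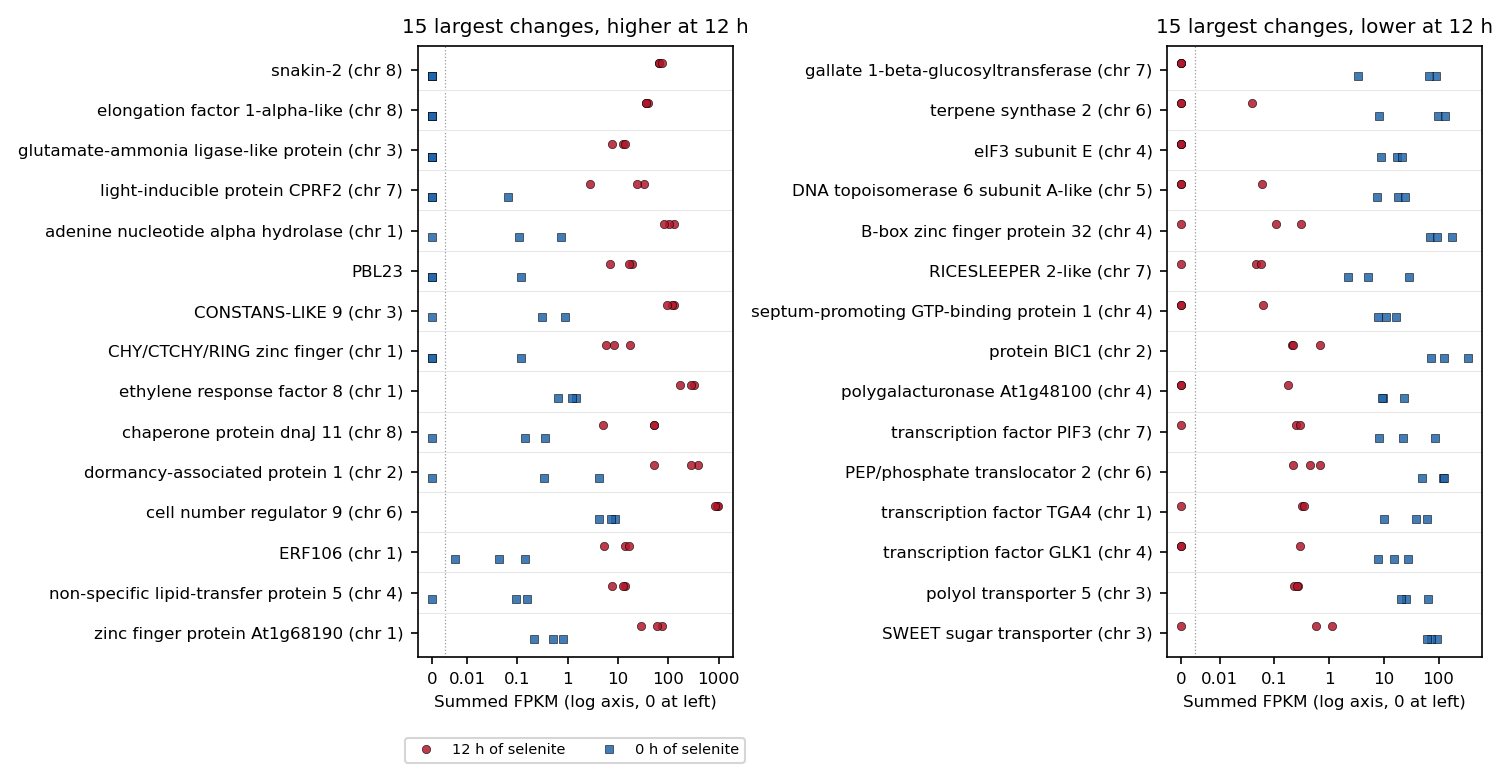
Summed FPKM in each of the 3 libraries of 12 h (circles) and 0 h (squares) for the 15 called summed copies of largest rise (left) and of largest fall (right), on a log axis with 0 drawn at the left edge. The circles and squares of a row do not overlap, which the choice of these genes required, and cell number regulator 9 stands at 837 to 983 FPKM at 12 h.

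The largest falls included regulators of light responses and carriers of sugars. B-box zinc finger protein 32 on chromosome 4, a transcription cofactor of the light pathway in Arabidopsis, had 0.109, 0 and 0.311 FPKM at 12 h, against 177, 68.5 and 93.4 FPKM at 0 h. The log2 change was -9.73 ± 0.92 (SE), with an edgeR adjusted p of 0.000747. BIC1, which blocks cryptochrome blue-light receptors in Arabidopsis, had 0.213, 0.67 and 0.219 FPKM at 12 h, against 341, 125 and 74.4 FPKM at 0 h, a log2 change of -8.98 ± 0.80. PIF3 on chromosome 7, a phytochrome-interacting factor, had 0.245, 0.296 and 0 FPKM at 12 h, against 8.32, 22.3 and 86.9 FPKM at 0 h. The 0 h libraries spread over an order of magnitude for PIF3, but none of them came near the 12 h libraries. GLK1, an activator of chloroplast genes in Arabidopsis, had 0, 0 and 0.292 FPKM at 12 h, against 15.2, 8.0 and 27.3 FPKM at 0 h. The sigma factor sigE, which directs the plastid RNA polymerase, was noticed after the values were seen and had 3.99, 3.86 and 4.51 FPKM at 12 h, against 425, 180.1 and 221 FPKM at 0 h, a log2 change of -6.50 ± 0.35.

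Among carriers, the phosphoenolpyruvate/phosphate translocator 2 of the plastid envelope had 0.222, 0.452 and 0.688 FPKM at 12 h, against 119, 50.8 and 124 FPKM at 0 h. A putative SWEET sugar transporter, of the family that lets sugars leave cells, had 0.565, 0 and 1.12 FPKM at 12 h, against 93.9, 73.9 and 62.3 FPKM at 0 h. Polyol transporter 5, a proton-coupled importer of sugar alcohols and sugars, had 0.268, 0.227 and 0.264 FPKM at 12 h, against 25, 20.5 and 64.3 FPKM at 0 h. For all 3 carriers, each 0 h library was more than an order of magnitude above each 12 h library. The other large falls were TGA4, a bZIP factor of defence and nitrate responses in Arabidopsis (-7.70), terpene synthase 2 (-12.82), DNA topoisomerase 6 subunit A-like (-9.75), a RICESLEEPER 2-like zinc finger protein (-9.26), all as log2 changes. Polygalacturonase At1g48100, a pectin-cleaving enzyme (-8.33), and septum-promoting GTP-binding protein 1 (-9.05) also fell, and each lost its call in 1 of 9 fits (adjusted p of 0.05001 without 12 h replicate 2 and 0.0563 without 12 h replicate 1).

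**Figure D2:**
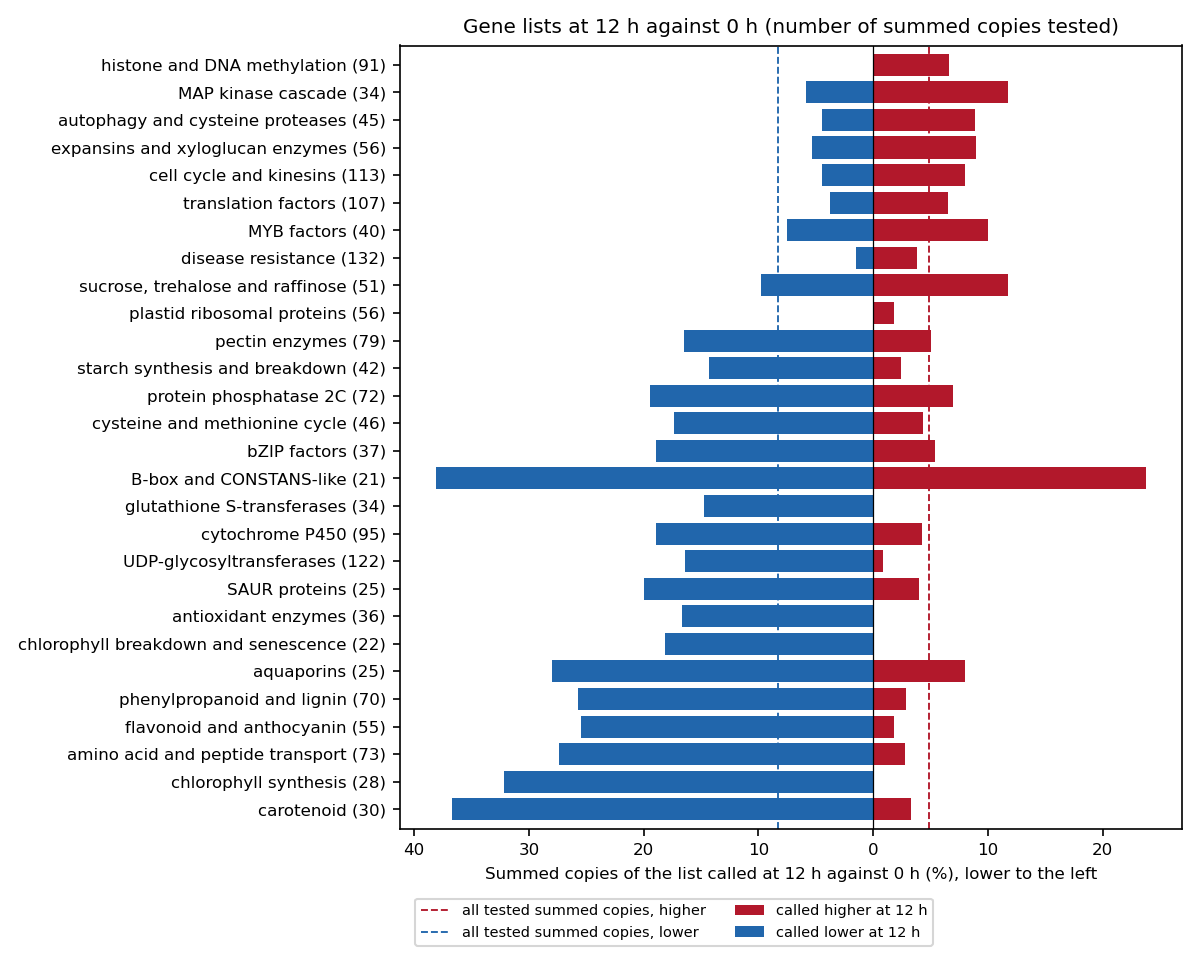
Share of each list's tested summed copies called higher (right of 0) and lower (left of 0) at 12 h against 0 h, for the 28 lists of at least 20 tested members at both ends of the difference between the shares; the number tested stands after each name and dashed lines give 4.82% and 8.28% over all summed copies. The B-box and CONSTANS-like list reaches furthest on both sides, with 23.8% higher and 38.1% lower, followed on the left by carotenoid (36.7%) and chlorophyll synthesis genes (32.1%).

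Of 21 B-box and CONSTANS-like zinc finger proteins, which relay light and day length, 5 were called higher and 8 lower, with a median log2 change of -0.68. CONSTANS-LIKE 4 on chromosome 2 had 0.721, 1.0 and 0.46 FPKM at 12 h, against 113, 57.7 and 108 FPKM at 0 h, a log2 change of -7.34 ± 0.48. B-box 24, a repressor of light responses in Arabidopsis, fell by 5.48 and had 14.3, 10.5 and 29.5 FPKM at 12 h, against 708, 269 and 801 FPKM at 0 h. CONSTANS-LIKE 16 went the other way, with 298, 251 and 81.9 FPKM at 12 h, against 3.64, 12.5 and 13.3 FPKM at 0 h, and B-box 18 fell by 3.29. B-box 24 and CONSTANS-LIKE 16 were singled out after their values were seen. Of 37 bZIP factors 2 were higher and 7 lower (6 and 5 with library totals): bZIP 46 changed by -3.52 ± 0.33 and HY5-like, related to a main activator of light-grown development, by -3.42 ± 0.42.

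In other families the calls were few or ran both ways. Among 40 MYB factors 4 rose and 3 fell (1 and 5 of 105 single genes). MYBS1, a regulator of sugar-starved amylase genes in rice, fell by 1.66, and MYBS3 rose by 1.27, a call lost without 12 h replicate 2 (adjusted p = 0.0505). Of 29 homeobox-leucine zipper factors 2 rose and 3 fell (3 and 3 with library totals). ANTHOCYANINLESS 2, an epidermal factor, had 72.7 ± 24 FPKM at 12 h and 13.7 ± 3.92 FPKM at 0 h (SD, n = 3 each) and HAT4, a shade-response factor, fell by 3.21, a call lost in 2 of 9 fits (adjusted p up to 0.0559 without 12 h replicate 1). Of 82 bHLH factors 5 rose (6.10%) and 8 fell (9.76%), or 18 and 6 with library totals, against 4.82% and 8.28% over all summed copies. WRKY factors, of defence and stress, had 0 of 55 higher and 4 lower by edgeR (6 and 2 with library totals, 5 and 8 by DESeq2, 8 and 9 at an unadjusted p under 0.05), and NAC factors 0 of 35 higher and 1 lower (1 and 0 with library totals, 1 and 3 by DESeq2, 1 and 6 at an unadjusted p under 0.05). C-repeat binding factor 9, of the cold-response regulators, had no count at 12 h and 8.68, 3.56 and 11.1 FPKM at 0 h, at least 91.3-fold lower.

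Photoreceptor and light-signalling genes had 3 of 51 higher and 6 lower (7 and 5 with library totals), with a median of -0.24. The ultraviolet-B receptor UVR8 on chromosome 7 had 4.73, 5.77 and 4.85 FPKM at 12 h, against 45.3, 72.7 and 67.1 FPKM at 0 h, and 3 of the 5 UVR8 summed copies were called lower. The log2 change of that UVR8 was -4.17 ± 0.32 (SE), with an edgeR adjusted p of 0.000288. Cryptochrome DASH, a flavoprotein related to DNA-repair photolyases, fell by 2.35. A (6-4) photolyase, which repairs ultraviolet damage in DNA, had 4.6, 3.82 and 6.17 FPKM at 12 h, against 35.7, 24.1 and 23.4 FPKM at 0 h. COP1-interacting protein 7 was higher, with 27.5, 27.2 and 24.4 FPKM at 12 h, against 4.49, 5.94 and 4.04 FPKM at 0 h. The photolyase was named from the GO term response to UV, described below.

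Abscisic acid is the hormone of drought and dormancy; NCED enzymes make its precursor, 8'-hydroxylases inactivate it, and receptors of the PYR and PYL family bind it and inhibit protein phosphatases 2C. Of 33 members 4 were called higher and 7 lower (7 and 6 with library totals), with a median of -0.15. Hydroxylase 2 on chromosome 1 had 0.386, 0.278 and 0.105 FPKM at 12 h, against 54.5, 5.71 and 24.6 FPKM at 0 h. Hydroxylase 4 on chromosome 4 had 0.21, 0.159 and 0.555 FPKM at 12 h, against 6.98, 22.7 and 6.36 FPKM at 0 h. NCED1, on the synthesis side, was lower too, with 0.972, 1.04 and 0.722 FPKM at 12 h, against 7.87, 19.7 and 10.1 FPKM at 0 h and a log2 change of -4.18 ± 0.48. All 12 h libraries lay below all 0 h libraries for these 3 genes, and 3 of 5 hydroxylases were called lower and none higher. Among the receptors, PYL4 on chromosome 7 had 14.5, 14 and 17.3 FPKM at 12 h, against 1.72, 2.39 and 0.704 FPKM at 0 h, and 3 of 8 receptors were called higher and none lower. Calls were lost in 2 of 9 fits for PYL4 on chromosome 4 (3.50, adjusted p up to 0.059 without 0 h replicate 3) and in 5 for PYR1 (2.01, up to 0.0897 without 12 h replicate 2). These subfamilies, and the others counted below, were set after the values had been seen, and differences between them were not tested. Where edgeR called none of a subfamily in one direction, DESeq2 called none either, except for 1 vacuolar carrier and 1 polygalacturonase that were higher. At an unadjusted p under 0.05, 1 carrier and 1 polygalacturonase were higher and 1 receptor was lower.

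Aux/IAA proteins repress auxin response factors and are themselves induced by auxin, and SAUR proteins promote cell elongation. In the auxin list 4 of 53 were higher and 7 lower (12 and 7 with library totals), and in the SAUR list 1 of 25 was higher and 5 lower, with medians of 0.23 and -1.39. Of 12 Aux/IAA genes 5 were lower and none higher, and of 20 auxin response factors 3 were higher and 1 lower. Auxin-induced protein 22D, an Aux/IAA gene, had 6.94, 8.81 and 7.15 FPKM at 12 h, against 49.2, 27.1 and 49.1 FPKM at 0 h. Likewise 22B fell by 1.82, IAA11 by 1.67 and IAA28 by 5.88, the last not called without 12 h replicate 2 (adjusted p = 0.0642). Auxin response factor 4 had 18.2, 13 and 6.22 FPKM at 12 h, against 2.06, 1.0 and 1.29 FPKM at 0 h, a log2 change of 2.67 ± 0.47. Among SAUR genes, auxin-induced protein 6B had 4.18, 5.83 and 4.2 FPKM at 12 h, against 74.4, 30.9 and 52.4 FPKM at 0 h. SAUR36 had 116, 89.3 and 67.5 FPKM at 12 h, against 436, 324 and 622 FPKM at 0 h, and the times did not overlap for either gene. SAUR32 on chromosome 4 fell by 2.71. SAUR50, the 1 SAUR gene that rose, had 12, 17.6 and 16.9 FPKM at 12 h, against 0.978, 1.95 and 1.09 FPKM at 0 h. Auxin response factor 4, IAA28 and SAUR50 were named after their values were seen.

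In the cytokinin list 3 of 25 were higher and 5 lower, with a median of -1.12 (0 and 1 of 60 single genes). Without 12 h replicate 1 the list had 0 higher and 2 lower, and without replicate 2 it had 0 and 3. Its members lower at 12 h included ARR17, a response regulator that cytokinin induces (-4.27), histidine-containing phosphotransfer protein 1 (-1.32) and cytokinin dehydrogenase 6, which degrades the hormone (-5.76, not called without 12 h replicate 1, adjusted p = 0.0825). Of 25 gibberellin genes 0 were higher and 2 lower by edgeR (2 and 2 with library totals, 3 and 4 by DESeq2 and at an unadjusted p under 0.05). The 2 were gibberellin 2-oxidases that inactivate the hormone, with log2 changes of -4.22 and -3.40, and both calls were lost in 3 of 9 fits (adjusted p up to 0.083 and 0.0955 without 12 h replicate 2). Among 14 brassinosteroid genes 2 rose and 2 fell (3 and 2 with library totals), and cytochrome P450 90A1 of brassinosteroid synthesis had 1.69, 1.61 and 1.72 FPKM at 12 h, against 4.23, 6.35 and 8.24 FPKM at 0 h. The jasmonate list had 1 of 40 higher and 1 lower (4 and 0 with library totals, 4 and 3 by DESeq2). Its libraries of 12 h were unlike: the list summed to 1951, 1993 and 8197 FPKM at 12 h, against 8047, 6742 and 4528 FPKM at 0 h. Without 12 h replicate 3 the jasmonate list had 0 higher and 6 lower, with a median of -1.17 in place of -0.46. In the ethylene list of 79, 6 were higher and 6 lower (10 and 4 with library totals). ERF104 rose by 1.51, and EIN3-binding F-box protein 1, which removes the ethylene factor EIN3, had 12.8, 10.1 and 9.96 FPKM at 12 h, against 46.8, 36.4 and 28.4 FPKM at 0 h.

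CBL-interacting protein kinases (CIPKs) act with CBL calcium sensors on ion channels and carriers, nitrate and potassium transport among them. Of 122 calcium sensors and kinases 10 were called higher and 19 lower (18 and 17 with library totals). Of the 25 CIPK groups 14 were lower and 1 higher, with a median of -1.75, and of 8 CBL groups 1 was higher and none lower. The lower CIPK groups counted CIPK7 on chromosome 1 and also, each on its own, CIPK7 genes outside the numbered chromosomes. CIPK2 on chromosome 7 had 3.3, 2.45 and 4.66 FPKM at 12 h, against 102, 81.4 and 162 FPKM at 0 h, a log2 change of -5.51 ± 0.41 (SE) at an edgeR adjusted p of 0.000245. CIPK11 on chromosome 5 had 10.6, 11.3 and 14.5 FPKM at 12 h, against 84.9, 133 and 92.4 FPKM at 0 h. Every 12 h library was several-fold below every 0 h library in both. A further CIPK2 group on chromosome 5 fell by 3.43. Calcineurin B-like protein 7, the CBL sensor that rose and that was named after its values were seen, had 29.4, 29.7 and 30.1 FPKM at 12 h, against 10.1, 8.94 and 4.86 FPKM at 0 h. The calcium list had 4 higher and 10 lower without 12 h replicate 1, and 3 and 10 without replicate 2.

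Protein phosphatases 2C, among them the ones that abscisic acid receptors inhibit, had 5 of 72 higher and 14 lower. Phosphatase 2C 13 had 7.69, 6.37 and 8.07 FPKM at 12 h, against 32.1, 26.9 and 33.6 FPKM at 0 h. Phosphatase 2C 65 fell by 3.59. The phosphatases had 3 higher and 6 lower without 12 h replicate 1, 3 and 5 without replicate 2, and 12 and 6 with library totals as the scaling. In the mitogen-activated protein kinase list, 4 of 34 were higher and 2 lower. Mitogen-activated protein kinase kinase 9 had 46.1, 38.2 and 22.4 FPKM at 12 h, against 2.43, 6.0 and 1.39 FPKM at 0 h. MPK9 rose by 1.31 and MPK19 fell by 2.02. Receptor-like kinases, the largest kinase list, had 14 of 327 higher (4.28%) and 37 lower (11.3%), against 4.82% and 8.28% over all summed copies. They had 2 and 13 without 12 h replicate 1, and 33 and 28 with library totals. Disease resistance proteins, mostly receptors inside the cell, had 5 of 132 higher and 2 lower (9 and 11 of 380 single genes). Among them DSC1 had 161, 179.8 and 74.9 FPKM at 12 h, against 7.7, 1.49 and 0.586 FPKM at 0 h, a log2 change of 4.82 ± 0.79.

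**Figure D3:**
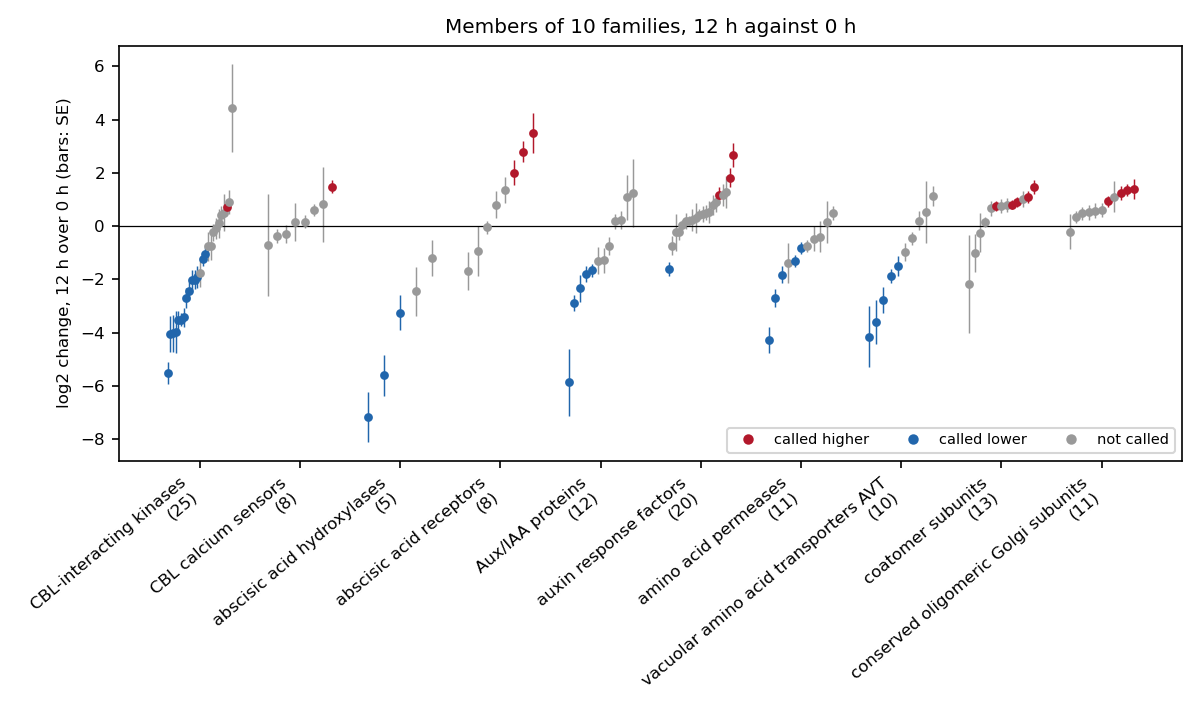
Log2 change of 12 h over 0 h with its SE for every tested summed copy of 10 families, ordered by size within a family, in red where called higher, blue where called lower and grey where not called. In the CIPK family 14 of 25 points are blue and 1 is red, and the coatomer and oligomeric Golgi families, at the right, hold red points and no blue ones.

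The list of markers known from resting buds and sugar-starved leaves held dormancy-associated, EXORDIUM and TSJT1-like proteins, and 5 of 14 were called higher and none lower, by edgeR and by DESeq2, with a median of 1.05. Dormancy-associated protein 1, an auxin-repressed protein of resting buds, had 392, 286 and 52.7 FPKM at 12 h, against 0.34, 0 and 4.24 FPKM at 0 h. The third library of 12 h was far below the other 2 and still above every 0 h library; the log2 change was 6.75 ± 1.87, and the call was lost in 7 of 9 fits with one library left out (adjusted p up to 0.132 without 12 h replicate 1). Its homolog 3 on chromosome 1 had 73.2, 80.1 and 19.8 FPKM at 12 h, against 1.16, 0.537 and 1.31 FPKM at 0 h, with 5 of 9 calls lost (adjusted p up to 0.0897 without 12 h replicate 2). EXORDIUM-like 5, of a cell wall protein family that in Arabidopsis answers low carbon, had 31.5, 30.05 and 69.2 FPKM at 12 h, against 4.73, 5.99 and 7.98 FPKM at 0 h. The list had 2 called higher without 12 h replicate 1 or 2, and 6 with library totals as the scaling.

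Several enzymes that release carbon from amino acids and lipids, or store nitrogen, were higher. Proline dehydrogenase, which starts proline breakdown in mitochondria, had 227, 211 and 312 FPKM at 12 h, against 13.4, 45 and 19.1 FPKM at 0 h, and its log2 change was 2.93 ± 0.44 (SE; edgeR adjusted p = 0.00456). The beta chain of methylcrotonoyl-CoA carboxylase, of leucine breakdown, had 25.7, 35.7 and 25.6 FPKM at 12 h, against 6.59, 6.37 and 5.8 FPKM at 0 h. Asparagine synthetase, which stores nitrogen in asparagine, had 8.89, 7.95 and 1.69 FPKM at 12 h, against 0.122, 0.434 and 0.198 FPKM at 0 h. A group of that enzyme annotated as nodule type had 15.7, 12.3 and 5.76 FPKM at 12 h, against 0.143, 0.277 and 0 FPKM at 0 h. The lipase SDP1, which opens storage oil in Arabidopsis seedlings, had 18.9, 19.3 and 5.51 FPKM at 12 h, against 0.824, 1.72 and 0.809 FPKM at 0 h. None of the 12 h libraries overlapped with 0 h for these 3 groups. Malate synthase of the glyoxylate cycle had 3.56, 3.46 and 4.97 FPKM at 12 h, against 0.283, 0.0934 and 0 FPKM at 0 h. Autophagy-related protein 8i, of the proteins that coat autophagosomes, had 49.7, 51 and 45.7 FPKM at 12 h, against 11.7, 13.8 and 11.3 FPKM at 0 h. Both asparagine synthetases, SDP1 and malate synthase were named after their values were seen, and leaving out one library ended the calls of asparagine synthetase in 4, of its nodule type in 3 and of malate synthase in 6 of 9 fits (adjusted p up to 0.0699 without 12 h replicate 1, 0.0685 without 0 h replicate 1 and 0.106 without 12 h replicate 1). As summed copies, the lists around them had calls both ways: amino acid breakdown had 2 of 30 higher and 3 lower (6 and 2 with library totals). Lipid breakdown and peroxisome genes had 7 of 161 higher (4.35%) and 13 lower (8.07%), or 20 and 8 with library totals. These shares lie near the 4.82% and 8.28% over all summed copies. The list of autophagy genes and cysteine proteases had 4 of 45 higher and 2 lower, with a median of -0.07 (9 and 2 with library totals). As single genes it had 5 of 121 higher and 0 lower, with a median of 0.15. The list summed to 3140 to 3309 FPKM at 12 h, against 1372 to 1830 FPKM at 0 h. Hydroxymethylglutaryl-CoA lyase, also of leucine breakdown, fell by 6.07, with 3.81, 3.68 and 5.84 FPKM at 12 h, against 401, 99.7 and 189 FPKM at 0 h.

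Amino acid carriers move nitrogen between cells and in and out of the vacuole. Of 73 amino acid and peptide carriers 2 were called higher (2.74%) and 20 lower (27.4%), with a median of -0.55. Amino acid permease 6 on chromosome 3, a proton-coupled importer, had 0.482, 0.494 and 1.33 FPKM at 12 h, against 15.1, 10.8 and 8.5 FPKM at 0 h. Permease 7 had 13.7, 13.7 and 8.62 FPKM at 12 h, against 94, 46.4 and 37.7 FPKM at 0 h. All 12 h libraries lay below all 0 h libraries for both. The 20 lower ones included 5 of 11 amino acid permeases and 5 of 10 vacuolar carriers of the AVT family. Without 12 h replicate 1 the list had 8 lower, without replicate 2 it had 9, and with library totals as the scaling 7 were higher and 15 lower. Of 32 sugar carriers 2 rose and 5 fell (5 and 3 with library totals), the SWEET and polyol carriers above among them. Sugar transport protein 7 fell, with 3.31, 3.17 and 3.11 FPKM at 12 h, against 10.5, 7.3 and 11.2 FPKM at 0 h. Sugar transport protein 1, a proton-coupled hexose importer named after its value was seen, rose, with 63.9, 61.4 and 37.1 FPKM at 12 h, against 4.71, 13 and 5.04 FPKM at 0 h.

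Starch genes had 1 of 42 higher and 6 lower (6 and 4 with library totals), with a median of -0.56. Granule-bound starch synthase 1, which makes amylose, had 46.5, 42 and 63.5 FPKM at 12 h, against 297, 198 and 240.1 FPKM at 0 h, and soluble starch synthase 1 fell by 1.67. Beta-amylase 3 on chromosome 5, which releases maltose from starch, had 10.1, 9.43 and 12.9 FPKM at 12 h, against 145, 57.7 and 55 FPKM at 0 h. Of 51 sucrose, trehalose and raffinose genes 6 rose and 5 fell. Along the raffinose route, galactinol synthase 1, the entry enzyme, had 0, 0.0565 and 0 FPKM at 12 h, against 4.62, 4.01 and 2.77 FPKM at 0 h. A galactinol-sucrose galactosyltransferase, which makes raffinose, fell by 3.77. Stachyose synthase, the next enzyme, rose, with 4.96, 3.47 and 3.93 FPKM at 12 h, against 0.51, 0.773 and 0.601 FPKM at 0 h. That list had 1 higher and 2 lower without 12 h replicate 1.

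Nitrate is reduced in leaves in a pair of steps to ammonium, which then enters amino acids. Of 67 nitrogen genes 5 were higher and 10 lower, and the 10 included nitrate and nitrite reductase. Ferredoxin-nitrite reductase had 11.5, 11.6 and 13 FPKM at 12 h, against 277, 111 and 178 FPKM at 0 h, a log2 change of -4.39 ± 0.44. Nitrate reductase, the step before it, had 26.2, 20.3 and 64.7 FPKM at 12 h, against 243, 95.7 and 108 FPKM at 0 h; this call was lost in 3 of 9 fits (adjusted p up to 0.0905 without 12 h replicate 1). NPF6.4, of the nitrate and peptide carrier family, had 6.52, 7.09 and 7.02 FPKM at 12 h, against 79.3, 51.1 and 58.7 FPKM at 0 h. NPF6.3, the nitrate carrier and sensor of Arabidopsis roots, had 2.64, 1.49 and 2.11 FPKM at 12 h, against 10.02, 9.14 and 9.99 FPKM at 0 h. Ammonium transporter 1 member 3 was higher, with 13.5, 11.7 and 9.24 FPKM at 12 h, against 1.79, 1.13 and 0.94 FPKM at 0 h. Nitrate reductase and NPF6.3 were named after their values were seen.

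**Figure D4:**
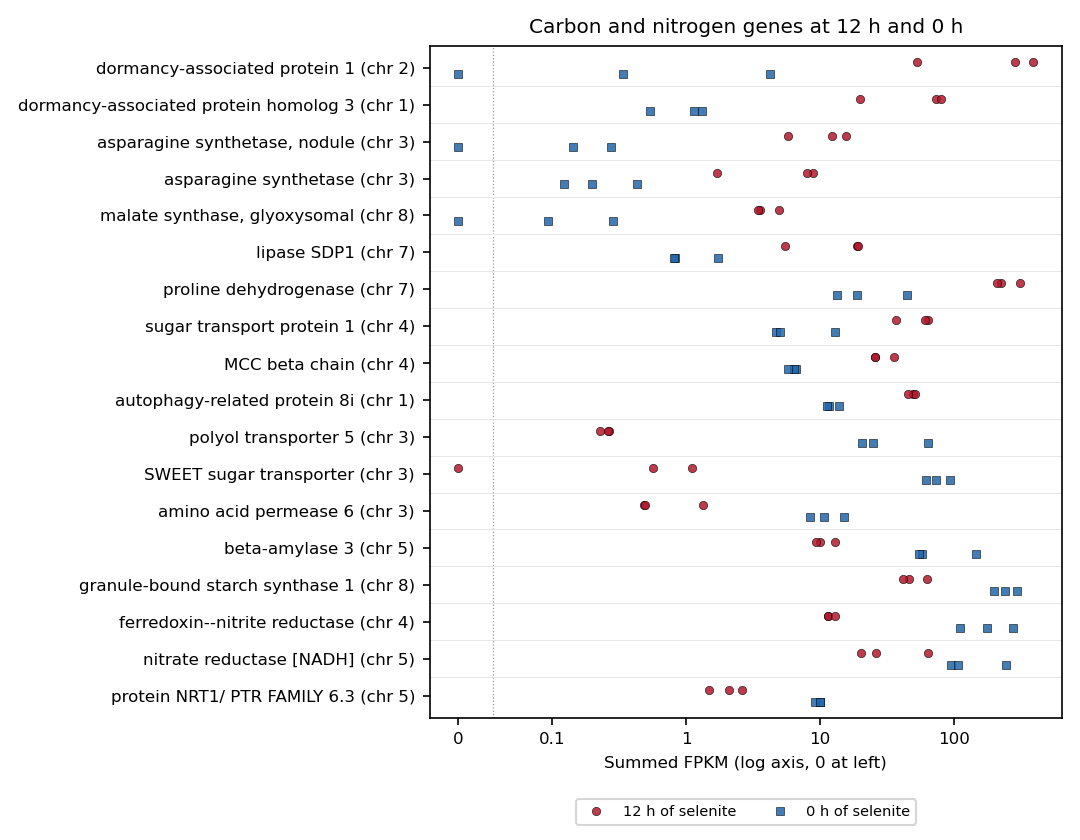
Summed FPKM in each of the 3 libraries of 12 h (circles) and 0 h (squares) for 18 genes of carbon and nitrogen use, on a log axis with 0 drawn at the left edge. The upper 10 genes stand higher at 12 h and the lower 8 stand lower, with no overlap between the times in any row, and the third 12 h library is the low point for dormancy-associated protein 1 at 52.7 FPKM. The genes were picked by hand from called summed copies, some after their values were seen, so the clean split follows from the choice. Hydroxymethylglutaryl-CoA lyase of leucine breakdown, which fell, is not drawn.

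Of 46 members of the cysteine and methionine cycle, the route that selenium shares with sulfur, 2 were higher and 8 lower, with a median of -0.30. With library totals 4 were higher and 7 lower, with a median of 0.14. Without 12 h replicate 1 the list had 0 higher and 4 lower, and without replicate 2 it had 0 and 5. S-adenosylmethionine decarboxylase on chromosome 7, which feeds polyamine synthesis, had 50.1, 44.2 and 69.1 FPKM at 12 h, against 668, 434 and 299 FPKM at 0 h, and its log2 change was -3.44 ± 0.30 (SE; edgeR adjusted p = 0.000512). Cystathionine gamma-synthase 1, the first enzyme specific to methionine synthesis, had 117, 92.5 and 103 FPKM at 12 h, against 286, 169 and 242 FPKM at 0 h. Selenium-binding protein 1 on chromosome 3, a protein that binds selenium in Arabidopsis, was lower as well, with 45.3, 39.8 and 32.2 FPKM at 12 h, against 94.9, 95.8 and 60.9 FPKM at 0 h. The polyamine and GABA list had 0 of 31 higher and 3 lower by edgeR (4 and 3 with library totals). Spermidine synthase, the enzyme that uses the decarboxylase's product, had 33, 36.9 and 37.9 FPKM at 12 h, against 73.1, 51.8 and 52.6 FPKM at 0 h. Polyamine oxidase 2 fell by 2.08.

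Phosphate carriers are the main known route of selenite into cells. Of 19 phosphate transport genes 1 was higher and 5 lower, with a median of 0.07 (0 and 3 of 52 single genes). Without 12 h replicate 1 or 2 the list had 0 higher and 2 lower, with medians of -0.055 and -0.052. The inorganic phosphate transporter 1-3, of the uptake family in the plasma membrane, was the 1 that rose and was named after its values were seen. It had 316, 294 and 112 FPKM at 12 h, against 49.1, 55.6 and 24.2 FPKM at 0 h, with 5 of 9 calls lost (adjusted p up to 0.11 without 12 h replicate 1). Transporter 2-1 of the plastid envelope fell, with 38.1, 35.1 and 27.7 FPKM at 12 h, against 120.2, 99.3 and 132 FPKM at 0 h. Aquaporins, the channels for water and small neutral solutes, had 2 of 25 higher and 7 lower, with a median of -0.62. The NIP2-1 aquaporin, of a subfamily that carries silicon and in rice also selenite, had 1.87, 0.604 and 0.96 FPKM at 12 h, against 27.9, 8.29 and 24.4 FPKM at 0 h. PIP2-2, a plasma membrane water channel, had 57, 80.5 and 122 FPKM at 12 h, against 1043, 906 and 502 FPKM at 0 h, and neither aquaporin overlapped between the times.

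Enzymes that remove reactive oxygen include superoxide dismutases, peroxidases and glutathione S-transferases. Of 36 antioxidant enzymes 0 were called higher and 6 lower by edgeR (3 and 4 with library totals, 3 and 9 by DESeq2, 4 and 11 at an unadjusted p under 0.05). Of 34 glutathione S-transferases 0 were higher and 5 lower by edgeR (4 and 3 with library totals, 4 and 8 by DESeq2). The iron superoxide dismutase of the plastid had 12, 10.8 and 15 FPKM at 12 h, against 102, 62.6 and 88.7 FPKM at 0 h. Ascorbate peroxidase 3, of the peroxisome membrane in Arabidopsis, had 276, 278 and 248 FPKM at 12 h, against 484, 444 and 469 FPKM at 0 h, and a glutathione S-transferase on chromosome 4 fell by 2.28. Glutathione and glutaredoxin genes had 0 of 29 higher and 2 lower by edgeR (7 and 2 with library totals, 1 and 4 by DESeq2). Monothiol glutaredoxin-S9 had 1.84, 1.48 and 0.889 FPKM at 12 h, against 93.6, 13.5 and 17.2 FPKM at 0 h. Thioredoxins had 2 of 40 higher and 3 lower (9 and 3 with library totals).

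A list of metal carriers and metal-binding proteins, which by its wording also took in iron-sulfur enzymes, had 1 of 113 higher and 12 lower (9 and 9 with library totals). Metallothionein-like protein 1, a small cysteine-rich protein among the abundant transcripts, had 1933, 2029 and 2449 FPKM at 12 h, against 5439, 4538 and 6593 FPKM at 0 h. Ferritin-2, the iron store of the plastid, had 154, 153 and 173 FPKM at 12 h, against 2102, 535 and 794 FPKM at 0 h, and its first 0 h library was far above the other 2. Isoprenylated metal-binding proteins went both ways. Number 26 on chromosome 3 had 338, 320.0 and 312 FPKM at 12 h, against 78.4, 50.9 and 74.8 FPKM at 0 h. Number 39 on chromosome 7 had 14.6, 7.94 and 5.92 FPKM at 12 h, against 74, 46 and 85.6 FPKM at 0 h. In the GO term for anion transport across membranes, 8 of 21 were lower and none higher (11 and 1 by DESeq2), led by the plastid anion transporter 3. It had 0.079, 0.412 and 0 FPKM at 12 h, against 18.7, 12.7 and 13.8 FPKM at 0 h.

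Calls in pigment and secondary metabolism were mainly lower. Of 30 carotenoid genes 1 was higher and 11 lower, and of 28 genes of chlorophyll synthesis 0 were higher and 9 lower by edgeR (3 and 9 with library totals, 2 and 11 by DESeq2, 3 and 11 at an unadjusted p under 0.05). Zeaxanthin epoxidase on chromosome 8, of the xanthophyll cycle, had 2.56, 2.0 and 1.68 FPKM at 12 h, against 8.89, 12.4 and 12.7 FPKM at 0 h. The isomerase D27, which opens strigolactone synthesis, fell by 1.87. Glutamyl-tRNA reductase 1, which commits glutamate to chlorophyll and heme, had 18.5, 16.9 and 21.9 FPKM at 12 h, against 135, 149 and 219 FPKM at 0 h. Cytochrome P450 enzymes had 4 of 95 higher and 18 lower, and UDP-glycosyltransferases, which attach sugars to small molecules, 1 of 122 higher and 20 lower. With library totals as the scaling, UDP-glycosyltransferases had 14 higher and 14 lower. Without 12 h replicate 1 the P450 list had 10 lower and the glycosyltransferase list 9.

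Phenylpropanoid and lignin genes had 2 of 70 higher and 18 lower, with a median of -0.52. Phenylalanine ammonia-lyase, the entry enzyme, had 64.2, 70.5 and 92.3 FPKM at 12 h, against 398, 371 and 245 FPKM at 0 h. Caffeoyl-CoA O-methyltransferase 2, of lignin synthesis, had 57.3, 58.8 and 82.2 FPKM at 12 h, against 379.8, 432 and 172 FPKM at 0 h. Both were lower in each 12 h library than in any 0 h library. Xylem markers moved the same way, at 11.1 to 18.6 FPKM at 12 h against 41.2 to 130.2 FPKM at 0 h in sum, with 3 laccase groups in both lists, and their part in the lignin result was not tested. Without 12 h replicate 1 or 2 the list had 0 higher and 7 lower.

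In the flavonoid branch, flavonoid 3'-monooxygenase, which adds a hydroxyl group to the B ring, had 14.2, 15.8 and 20.4 FPKM at 12 h, against 396, 348 and 168 FPKM at 0 h. Dihydroflavonol 4-reductase, of anthocyanin and tannin synthesis, had 7.66, 7.49 and 7.4 FPKM at 12 h, against 36.6, 18.1 and 34.3 FPKM at 0 h. The flavonoid list had 1 of 55 higher and 14 lower, with 7 lower without 12 h replicate 1 or 2. In the triterpene branch, which leads to the saponins of alfalfa, 4 of 59 triterpene and sterol genes were higher and 9 lower (10 and 6 with library totals). Squalene epoxidase 1, the entry to sterols and saponins, had 4.61, 6.1 and 18.8 FPKM at 12 h, against 127, 51.3 and 87.9 FPKM at 0 h. A beta-amyrin 28-oxidase-like gene, of saponin synthesis, had 10.1, 10.1 and 9.57 FPKM at 12 h, against 111, 43.7 and 42.7 FPKM at 0 h. Without 12 h replicates 1 and 2 the triterpene list had 0 higher with 4 and 3 lower, and without replicate 3 it had 2 higher and 17 lower. Carbon fixation had 1 of 27 higher and 4 lower in the Calvin cycle (2 and 2 with library totals), and photorespiration 0 of 19 higher and 5 lower by edgeR (1 and 4 with library totals, 0 and 8 by DESeq2, 1 and 8 at an unadjusted p under 0.05). Rubisco activase 2, which keeps Rubisco active, had 5395, 6140.2 and 3505 FPKM at 12 h, against 16203, 11841 and 14956 FPKM at 0 h. Plastid aldolase 1 had 1575, 1621 and 1204 FPKM at 12 h, against 6691, 5668 and 6929.5 FPKM at 0 h, and serine hydroxymethyltransferase 4, of the enzyme family that makes serine from glycine, fell by 3.18.

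Xyloglucan enzymes (XTHs) cut and rejoin the tethers between cellulose fibres, expansins loosen them, and polygalacturonases cut pectin. Of 15 XTH genes 3 were higher and none lower. XTH23 had 53.4, 57.5 and 105 FPKM at 12 h, against 4.92, 1.66 and 2.72 FPKM at 0 h. XTH2 had 131, 85.1 and 95 FPKM at 12 h, against 8.94, 7.97 and 14.3 FPKM at 0 h. Of 17 expansins 2 were higher and 2 lower. Expansin-A13 fell, with 0.77, 1.38 and 0.838 FPKM at 12 h, against 9.37, 11.6 and 12 FPKM at 0 h. Expansin-A8, which rose and was named after its values were seen, had 1424, 1618 and 323 FPKM at 12 h, against 103, 113 and 85.5 FPKM at 0 h, with 4 of 9 calls lost (adjusted p up to 0.0608 without 12 h replicate 2). In the pectin list 4 of 79 were higher and 13 lower (9 and 9 with library totals). The 13 held 7 of the 26 polygalacturonases, of which none was higher. Pectinesterase 3, which removes methyl groups from pectin, rose, with 23.7, 21.5 and 21 FPKM at 12 h, against 3.33, 4.11 and 1.97 FPKM at 0 h. Fasciclin-like arabinogalactan protein 12, a secondary wall protein that also stood in the xylem markers, fell by 3.34, with 2.05, 1.94 and 1.1 FPKM at 12 h, against 10.9, 21 and 9.85 FPKM at 0 h.

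Of 108 genes of wax, cutin and lipid transfer 3 were higher and 15 lower, with a median of -0.48. ECERIFERUM 2, which extends very long fatty chains for wax, had 1.05, 0.881 and 2.34 FPKM at 12 h, against 31.4, 23.1 and 26.1 FPKM at 0 h. The dehydratase PASTICCINO 2A, of the same elongation complex, fell by 1.75. BODYGUARD 4, of a family needed for the cuticle, had 2.17, 2.81 and 2.68 FPKM at 12 h, against 30.2, 33.1 and 17.5 FPKM at 0 h, a log2 change of -3.81 ± 0.26. Without 12 h replicate 1 the list had 2 higher and 11 lower, and with library totals 6 and 12.

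Of 113 cell cycle and kinesin genes 9 were higher (7.96%) and 5 lower (4.42%), and of 46 kinesins, the motors of microtubules, 6 were higher and 3 lower. This balance did not hold throughout: as single genes the cell cycle list had 2 of 240 higher and 7 lower. As summed copies it had 7 higher and 7 lower without 0 h replicate 2, and 2 and 3 without 0 h replicate 3. A plus-end-directed kinesin had 13.9, 17 and 12.1 FPKM at 12 h, against 1.43, 1.31 and 0.838 FPKM at 0 h. KIN-4A on chromosome 8 fell by 2.05. Cytosolic ribosomal proteins had 2 of 210 higher (0.952%) and 4 lower (1.90%), or 9 and 3 with library totals. Proteasome subunits had 0 of 70 higher and 1 lower by edgeR (10 and 2 with library totals, 1 and 4 by DESeq2). Ribosome biogenesis factors had 0 of 75 called by edgeR (3 higher and 0 lower with library totals, 1 and 1 by DESeq2, 2 and 3 at an unadjusted p under 0.05), and histones 0 of 24 (3 and 0 with library totals, 0 and 1 by DESeq2, 1 and 1 at an unadjusted p under 0.05). Histone and DNA methylation genes had 6 of 91 higher (6.59%, against 4.82% over all summed copies) and 0 lower by edgeR (15 and 1 by DESeq2, 18 and 2 at an unadjusted p under 0.05). DRM2, a DNA methyltransferase of silencing, had 51.9, 47.7 and 27.6 FPKM at 12 h, against 11.3, 10.7 and 11.2 FPKM at 0 h. That list had 1 higher without 12 h replicate 1 or 2. Heat shock and chaperone genes had 5 of 103 higher (4.85%) and 8 lower (7.77%), or 10 and 4 with library totals. Those shares lie near the 4.82% and 8.28% over all summed copies. The disaggregase ClpB3 had 27.1, 26.4 and 27.2 FPKM at 12 h, against 108, 71.3 and 71.9 FPKM at 0 h, and a localized small heat shock protein fell by 3.28. Higher were pTAC5, a plastid disulfide isomerase bound to the plastid chromosome, with 89.7, 99.4 and 109 FPKM at 12 h, against 8.57, 10.4 and 6.12 FPKM at 0 h. The RNA-binding protein GRP1A rose too, with 336, 307 and 382 FPKM at 12 h, against 38.9, 43.8 and 57.2 FPKM at 0 h.

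Among GO and KEGG terms, some with a large share of calls were read as counts with no test. Several terms also hold genes of the sets that were set aside: 7 for response to gibberellin, 31 for the plastoglobule and 5 for selenocompound metabolism. Response to red light holds 3 such genes, plant hormone signalling 2 and response to UV 1. How many of the calls below belong to those sets is not given. Of the higher ones, response to gibberellin had 13 of 64 higher and 1 lower (20.3% and 1.56%), with a median of 0.82. The called members included small secreted peptides and regulators. Peamaclein, a snakin-type peptide, had 364, 401 and 421 FPKM at 12 h, against 2.86, 27.2 and 12.1 FPKM at 0 h. Snakin-2 on chromosome 1 had 303, 477 and 484 FPKM at 12 h, against 63.4, 42.8 and 22 FPKM at 0 h. The ubiquitin ligase BOI, a partner of growth-repressing DELLA proteins in Arabidopsis, rose by 3.04. XERICO, a ligase that DELLA proteins induce and that raises abscisic acid in Arabidopsis, had 23.4, 20.9 and 21.6 FPKM at 12 h, against 1.84, 2.59 and 1.43 FPKM at 0 h. Intra-Golgi vesicle transport had 10 of 50 higher and none lower, retrograde transport from Golgi to endoplasmic reticulum 6 of 30 and none, with medians of 0.59 and 0.43 (15 and 1, and 7 and 2, by DESeq2). They held 5 of 13 coatomer groups, whose subunits coat these vesicles, and 4 of 11 groups of the oligomeric Golgi tether. Each rise lay between 0.75 and 1.46 on the log2 scale. The 5 coatomer calls included the beta-like subunit on chromosome 2 and a single beta-like gene outside the numbered chromosomes. Subunit 2 of the tether had 12.2, 14.2 and 15.7 FPKM at 12 h, against 3.6, 4.62 and 3.86 FPKM at 0 h. Glucosinolate metabolism had 11 of 42 higher and 3 lower, but the 11 were transcription factors and other DNA-binding proteins, ERF106 and ethylene response factor 8 among them. Peamaclein, this snakin-2, XERICO, the tether subunit, the anion transporter and ferritin-2 were named after their values were seen.

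Of the lower terms, chlorophyll synthesis had 13 of 32 lower and 1 higher. Response to red light had 10 of 26 lower, response to UV 11 of 33, polygalacturonase activity 8 of 24 and brassinosteroid synthesis 7 of 21, the last with the 3 abscisic acid hydroxylases among its members. Brassinosteroid synthesis had 1 higher and the other 3 terms none (by DESeq2, 1 for red light and 0 for UV and polygalacturonase activity). The KEGG map of brassinosteroid synthesis had 2 of 12 lower and 2 higher (2 and 3 with library totals). The plastoglobule, the lipid droplet of plastids, had 17 of 47 lower and 2 higher, and this term holds 31 genes of the sets set aside. Of 8 ABC1 kinases, several of which sit there, 7 were lower. Among the KEGG maps listed for description, flavonoid synthesis had 20 of 92 lower and none higher (28 and 2 by DESeq2), phenylpropanoid synthesis 40 of 215 and 6, carotenoid synthesis 16 of 79 and 4, cysteine and methionine metabolism 23 of 162 and 3 (18 and 18 with library totals), and selenocompound metabolism 4 of 29 and 0 (3 and 3 with library totals, 7 and 0 by DESeq2). Ribosome had 14 of 471 lower and 10 higher (6 and 36 with library totals), and plant hormone signalling 46 of 381 lower and 22 higher (36 and 55 with library totals).

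The change at 12 h was set against that at 48 h by testing 12 h against 48 h, which equals the difference between both changes from 0 h. Of 20074 summed copies 4303 were called in that test, 21.4%, with 1863 higher and 2440 lower at 12 h, and 20 of the 30 summed copies of largest change passed it. B-box 32 had 74.7, 62.5 and 92.7 FPKM at 48 h, near its 0 h level, and stood at -9.27 on the log2 scale for 12 h against 48 h (edgeR adjusted p = 0.000553). BIC1, GLK1, PIF3, the SWEET carrier and the phosphoenolpyruvate/phosphate translocator differed in the same way, by -7.70 for GLK1 and -6.90 for the SWEET carrier. Cell number regulator 9 had 331, 545 and 280.0 FPKM at 48 h, and its difference of 0.54 ± 0.31 (SE) did not pass (adjusted p = 0.254). Ferritin-2 stood at 160.0 ± 11.6 FPKM at 12 h and 115 ± 74.7 FPKM at 48 h (SD, n = 3 each), with no detected difference (adjusted p = 0.996). For flavonoid 3'-monooxygenase the levels at 48 h were 25.4, 40.7 and 28.3 FPKM, still far under 0 h.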

How the data were processed

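RNA of alfalfa leaves was measured in 9 libraries, 3 each at 0, 12 and 48 h of selenite. The authors deposited a table of counts and FPKM per gene and library. HISAT and StringTie are named in the submitters' processing notes without versions, while build, annotation and treatment of multiply matching reads are not given in the sources used. The deposited counts hold 164632 genes, 63624 of them with no count, and the authors' FPKM of 0.0001 at a count of 0 was read as 0. Counts of genes with one description on one numbered chromosome were summed, and the deposited FPKM likewise. Genes without an informative description and the 5738 outside the numbered chromosomes were kept single.

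Genes and summed copies that reached 1 FPKM in 3 or more libraries were tested with edgeR 4.0.16 (quasi-likelihood F-test, TMM scaling, all 9 libraries, 1 mean per time, no block) in R 4.3.3, adjusted by Benjamini-Hochberg over all tested at 0.05. SEs were taken from the log2 change and its F value. Alternatives used DESeq2 1.42.0, limma 3.58.1, other scalings, filters and sets of libraries, and the test was run on simulated counts first. A fold against a time with no count is a bound that sets 3 counts per library there. Totals were 39936347 to 56137145 counts per library, and the scatter between libraries also limits the precision.

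Of the 155 summed copies named, 129 came from a rule: the 15 rises and 15 falls of largest change among called ones with non-overlapping libraries and a mean FPKM of at least 10, and up to 3 of smallest adjusted p in each of 77 lists of gene descriptions. The other 26 were chosen after their values were seen. Lists, terms and members were chosen with earlier results of these data known, and the text gives counts for lists and terms, with no set test. A planned count of copies called against both 0 h and 48 h is not given, since both comparisons use the same 12 h libraries. Sequences were not used here.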

Additional observations from a re-analysis of the deposited data

Results flagged for a closer look

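For 17 of the 30 summed copies of largest change, the test of 12 h against 48 h, which is the difference between both changes from 0 h, passed the threshold, and counts were present at both times. Among the genes that rose at 12 h, edgeR gave a log2 difference of 12 h minus 48 h of 8.41 for the adenine nucleotide alpha hydrolase, 7.11 for CONSTANS-LIKE 9, 3.76 for the zinc finger At1g68190, 3.42 for ethylene response factor 8, 3.39 for snakin-2 on chromosome 8 and 3.04 for ERF106. All 6 were thus higher at 12 h than at 48 h. Among the genes that fell, the regulators differed by -9.27 for B-box 32, -8.91 for BIC1, -7.79 for PIF3, -7.70 for GLK1 and -4.91 for TGA4. The carriers differed by -7.58 for the phosphoenolpyruvate/phosphate translocator 2, -6.90 for the SWEET carrier and -5.11 for polyol transporter 5. The enzymes differed by -11.82 for terpene synthase 2, -8.84 for the DNA topoisomerase 6 subunit and -7.57 for polygalacturonase At1g48100. These 11 were lower at 12 h than at 48 h. Both changes share the 0 h libraries, both differences share the 12 h libraries, and the sampling hours cannot be told apart from hours of selenite.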

How the results depend on the processing

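For single genes, the 2991 calls became 1852 with no filter on low values, 9088 by DESeq2, 8256 and 5849 by limma on log2(FPKM + 1) and log2(FPKM + 0.1), and 0 with like libraries summed in edgeR, where 3776 had an unadjusted p under 0.05 (DESeq2 on the same columns called 3087). For summed copies, the 2631 calls became 4014 with library totals as the scaling (2850 higher and 1164 lower), 4621 by DESeq2 (1927 and 2694), 5334 and 4702 by the same limma fits (4006 and 1328, 3399 and 1303), and 0 with like libraries summed in edgeR or 1567 in DESeq2, the last chosen after seeing the data. The limma fits on FPKM, which carries no such scaling, moved the median of all summed copies to 0.37 and 0.46, and with library totals the single genes split into 1638 higher and 1563 lower in place of 806 and 2185. With one library left out in turn, single genes called ranged from 867 to 4440 and summed copies from 1111 to 3413, lowest without 12 h replicate 1 in both and highest without 48 h replicate 2. For 12 h against 48 h, the 4303 calls became 6651 with library totals (5105 higher and 1546 lower) and ranged from 2262, without 12 h replicate 2, to 5127, without 48 h replicate 2. The replicate block left 817 single genes and 1571 summed copies (484 higher and 1087 lower). Deviations of same-numbered libraries of 12 h and 0 h had correlations of 0.0043, -0.048 and -0.027. With 3 libraries per time these values cannot settle whether the numbers pair libraries. None of the 155 named summed copies changed direction in any setting tried; 3 lost the call with no filter, 1 with limma and a pseudocount of 1, 8 with the replicate block, all 155 with like libraries summed in edgeR, and 10 in DESeq2, and 9 of them were not tested at an FPKM of 5. All 155 were chosen among the calls of the edgeR fit of 9 libraries, so kept calls and directions partly follow from that choice. Median-of-ratios scaling, the stricter filter and the fit of 6 libraries kept the counts of single genes and of summed copies called within 1.5 times. The cause of these shifts was not tested. The dispersion between libraries was large, with a biological coefficient of variation of 0.843 for genes and 0.572 for summed copies, so that low-count and copy-specific values carry wide errors, and a missed threshold does not show equal levels.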
